A study of Mus musculus with 11 samples.

Results

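The genes described here, 6 in number, belong to the circle of interleukin-10 (IL-10): the cytokines Il10, Il19 and Il22, the receptor chains Il10ra and Il10rb, and Prdm1, which encodes the transcription factor Blimp-1. They were chosen by name, with earlier results of these data known. Each was read from the probe set whose identifier carries a RefSeq transcript of that gene. Each of the 6 genes had 1 probe set, among 909 named genes and 1246 probe sets on the array. The probe set of Il10rb has the suffix s, so its signal may not be specific to 1 transcript.

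The arrays measured RNA of 3 populations of CD4+ T cells sorted from spleens of female C57BL/6 mice, with no treatment named in the labels. Treg cells were CD25+ CD45RBlow (n = 3, replicates 1, 2 and 4). The CD25- cells were split into CD45RBlow cells, which the labels call activated or memory (n = 4), and CD45RBhigh cells, which they call naive (n = 4). The CD25- labels state naive mice of 4 to 6 weeks, and the Treg labels state no age, so age and population cannot be told apart in comparisons with Treg cells. No label says whether animals were pooled or replicates came from separate animals, so each p-value reflects the scatter among these arrays alone, which may be technical.

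IL-10 is a cytokine that restrains inflammation, and regulatory T cells are one of its sources in the gut and other tissues. It binds a receptor made of the ligand-binding chain IL-10RA and the shared chain IL-10RB, which signals through JAK1, TYK2 and STAT3. IL-22 and the lambda interferons also use IL-10RB, each with a binding chain of its own, and IL-22 acts mainly on epithelial cells. IL-19 belongs to the IL-20 branch of the family and signals through other chains. Blimp-1 is a zinc-finger repressor that accompanies terminal differentiation of lymphocytes, and in effector regulatory T cells it is known to be needed for IL-10 production.

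In mouse RefSeq gene order (GRCm38.p6, used for names and order only) Il10 and Il19 are neighbours on chromosome 1, next to Il20 and Il24. Il22 lies on chromosome 10 beside Iltifb, its near-identical copy, and Ifng. The Il22 probe set could therefore also read Iltifb transcripts. Il10rb lies on chromosome 16 between the interferon receptor genes Ifnar2 and Ifnar1, with Ifngr2 next. Il10ra is on chromosome 9, and Prdm1 is on chromosome 10, away from Il22.

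The RefSeq promoter table held no entry for Il10, Il10ra or Il10rb, so none of their sequences is shown. Among the other genes, Prdm1 and Il22 stood for 2 of the patterns of the data. These were a stepwise rise up to Treg cells and a peak in CD45RBlow cells, and the upstream sequences of these 2 genes are shown. Both come from the RefSeq promoter table (GRCm38.p6), written 5′ to 3′ along the gene's strand. The Prdm1 window covers the 250 bases before the annotated start (chr10:44458749-44458998, minus strand). The Il22 window covers the first 100 of those 250 bases (chr10:118204714-118204813, plus strand). Capitals mark matches to any of 7 motifs, which were chosen for these genes and searched on both strands.
Prdm1: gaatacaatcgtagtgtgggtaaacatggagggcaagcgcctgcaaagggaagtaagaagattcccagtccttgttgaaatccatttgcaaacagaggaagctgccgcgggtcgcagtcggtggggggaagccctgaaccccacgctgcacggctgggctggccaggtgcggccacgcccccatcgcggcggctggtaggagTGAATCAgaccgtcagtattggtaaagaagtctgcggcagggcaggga
Il22: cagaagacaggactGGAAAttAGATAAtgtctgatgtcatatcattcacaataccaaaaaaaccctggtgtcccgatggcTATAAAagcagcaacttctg
The motif of the TATA box was searched as TATAAA, which 12.4% of all RefSeq windows of 250 bases held. An AP-1 site was searched as TGANTCA (6.75% of windows), a ROR element as AGGTCA (14%), a STAT site as TTCNNNGAA (7.02%) and a GATA site as AGATAA (9.99%). The short core of Blimp-1 sites, GAAAG, and that of NFAT sites, GGAAA, occurred in 51.5% and 55.6% of windows. The Prdm1 window held 1 AP-1 match at base -48 from the start. The Il22 stretch held an NFAT core match at base -236, a GATA match at base -229 and a TATA match at base -170. No match overlapped another, and the Blimp-1 core was in neither stretch. These matches describe the letters only and are no evidence of binding.

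All values are log2 expression after Robust Multichip Average (RMA), and a difference of 1 is 2-fold. Array medians lay between 4.85 and 4.94. Values under 3.64, the lower quartile over the whole table, are called near background. The sort was checked by Il2ra, the gene of CD25, which read 9.69 to 10.02 on Treg arrays, 5.77 to 6.54 on CD45RBlow arrays and 3.85 to 4.45 on CD45RBhigh arrays. Foxp3, Cd4 and the CD3 chains were not measured here. The pan-T-cell adhesion gene Cd2 was bright on every array, at 11.69 to 12.39. Arrays of replicates 1 and 2 lay apart from those of replicates 3 and 4 in each population, so values within these replicate sets are given where they differ.

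Of the 6 genes, 4 were higher in Treg than in CD45RBhigh cells at an adjusted p under 0.05 (limma with Benjamini-Hochberg adjustment over all probe sets), and 0 were lower. Across the array 10.3% of probe sets were higher and 8.59% lower by this rule. Against CD45RBlow cells 4 were again higher and 0 lower, where 6.74% of probe sets were higher and 5.78% lower. Between CD45RBlow and CD45RBhigh cells 3 were higher and 0 lower, against 7.62% and 4.98% of probe sets. These calls come from a fit without the replicate number. With that number as a block the calls over the whole array rose from 235 to 330 for Treg against CD45RBhigh. They rose from 156 to 245 for Treg against CD45RBlow and from 157 to 271 for CD45RBlow against CD45RBhigh. Il10, Il10ra, Il10rb and Prdm1 were the genes higher in Treg cells in both comparisons, and Il10, Prdm1 and Il22 those higher in CD45RBlow than in CD45RBhigh cells. The comparisons share arrays, so they are not independent of each other.

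Groups did not overlap, with Treg arrays higher, for 5 of the 6 genes against CD45RBhigh and for 4 against CD45RBlow, where 12.5% of all probe sets did so in each case. These 5 included Il22, which was near background on every Treg and CD45RBhigh array and did not pass (adjusted p = 0.563, limma). CD45RBlow arrays lay wholly above CD45RBhigh arrays for 3 of the 6, against 8.51% of probe sets. These 3 also included Il22, for which 2 of the 4 CD45RBlow arrays were near background. The median log2 difference of the 6 genes was 1.00 for Treg against CD45RBhigh, 0.71 for Treg against CD45RBlow and 0.63 for CD45RBlow against CD45RBhigh. Over all probe sets it was -0.04, 0.04 and -0.08.

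**Figure D1:**
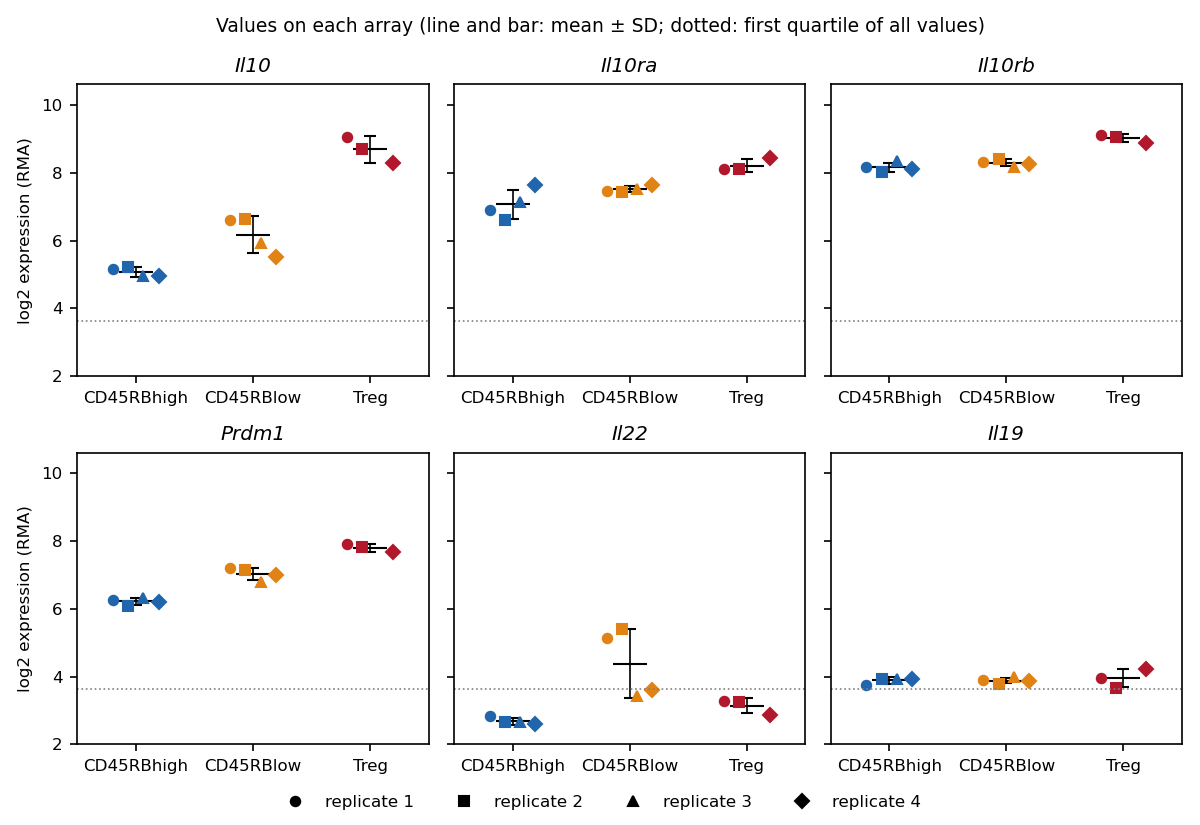
Log2 expression (RMA, vertical axis) of the 6 genes on each of the 11 arrays, by population and replicate number, with the mean and SD; the dotted line is the first quartile of all values (3.64). Il10 and Prdm1 step up from CD45RBhigh through CD45RBlow to Treg arrays, Il22 is above the dotted line only on CD45RBlow replicates 1 and 2, and Il19 stays close to the line.

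Among the ligands Il10 moved most. It read 9.07, 8.70 and 8.28 on Treg replicates 1, 2 and 4. On CD45RBlow replicates 1 to 4 it read 6.60, 6.63, 5.91 and 5.52, and on CD45RBhigh replicates 1 to 4 it read 5.16, 5.23, 4.97 and 4.95. The populations were separate in this order, with no array of one inside the range of another. Every value was above the near-background cut.

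The Treg mean of Il10, 8.68 ± 0.39 (SD, n = 3), was 12.2-fold above the CD45RBhigh mean of 5.08 ± 0.14 (SD, n = 4; adjusted p = 1.63e-06, limma). It was 5.73-fold above the CD45RBlow mean of 6.16 ± 0.55 (SD, n = 4; adjusted p = 5.28e-05, limma). By size these were the 7th and 6th highest differences of the array in the Treg direction. CD45RBlow cells in turn stood 2.13-fold above CD45RBhigh cells (log2 1.09, SE 0.24, adjusted p = 0.0129). That step was 1.42 within replicates 1 and 2 and 0.76 within replicates 3 and 4, a difference between the replicate sets of 0.67 (SE 0.20) that did not pass the test (adjusted p = 0.354). Il2ra, the gene of CD25, was likewise higher on CD45RBlow replicates 1 and 2 (6.54 and 6.41) than on replicates 3 and 4 (5.77 and 5.96). The relation of this to the Il10 signal of that population was not tested. In sorted bulk RNA a larger share of cells with a transcript and more transcript per cell cannot be told apart.

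Il22 was the exception to the Treg direction. On CD45RBlow replicates 1 and 2 it read 5.12 and 5.40, on replicates 3 and 4 only 3.42 and 3.60. Treg replicates 1, 2 and 4 read 3.28, 3.25 and 2.88, and CD45RBhigh replicates 1 to 4 read 2.83, 2.65, 2.65 and 2.59. The CD45RBlow arrays were above all others, but 2 of the 4 lay under the near-background cut, as did every array of the other populations.

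The CD45RBlow mean of Il22, 4.39 ± 1.02 (SD, n = 4), was higher than the CD45RBhigh mean of 2.68 ± 0.10 (SD, n = 4) by 1.70 on the log2 scale (SE 0.39, adjusted p = 0.0139). Since the lower mean was near background, this is given as at least 1.68-fold, the distance from the cut. With all values under the cut raised to it, the difference was 0.81 and the call ended (adjusted p = 0.156). Treg cells were below CD45RBlow cells by -1.25 (SE 0.42), which did not pass (adjusted p = 0.0871). With the replicate number as a block that difference was -1.41 and passed (adjusted p = 0.00751). All Treg values were near background, and with values raised to the cut the difference was -0.81 and did not pass (adjusted p = 0.242). It also passed without CD45RBlow replicate 3 (-1.57, adjusted p = 0.0205) or replicate 4 (-1.51, adjusted p = 0.0403). Treg and CD45RBhigh means were both near background, so no fold is given for them.

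The Il22 difference was not alike in the 2 replicate sets. Within replicates 1 and 2 the CD45RBlow arrays were above the near-background cut, and within replicates 3 and 4 the arrays of every population were under it, so no size is given for the latter. The gap between the replicate sets in the step from CD45RBhigh to CD45RBlow cells passed the test across the array (1.63 on the deposited scale, SE 0.16, adjusted p = 0.00261), as did 3 probe sets in all (0.241%): those of Il22, of Il21, a helper T cell cytokine, and of Angptl2. Between Treg and CD45RBlow cells the gap passed as well (adjusted p = 0.0297), and Il22 was the 1 probe set (0.0803%) for which it did. Both gaps rest in large part on near-background values, so their sizes are not measured folds. The sample titles carry a code for each replicate number that recurs across populations, and its meaning is not stated. The division into 2 sets was read from these same arrays, so the adjusted p-values of the gaps are no independent support for it. With 1 Treg array in replicates 3 and 4 the spread there is taken from the other groups.

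Il19 gave no sign of a difference between populations. Its values ran from 3.68 to 4.22 on Treg arrays, from 3.78 to 3.99 on CD45RBlow arrays and from 3.75 to 3.94 on CD45RBhigh arrays, all a little above the near-background cut. The ranges overlapped in each comparison. The differences were 0.07 (95% interval -0.18 to 0.31) for Treg against CD45RBhigh, 0.07 (-0.18 to 0.31) for Treg against CD45RBlow and -0.00 (-0.23 to 0.22) for CD45RBlow against CD45RBhigh, with adjusted p from 0.761 to 0.995 (limma). Il20, its neighbour and a cytokine of the same branch, read 4.20 to 4.56 over all arrays and passed in 0 comparisons. Neither of the lambda interferon genes measured, Ifnl2 and Ifnl3, passed in any comparison.

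The chain that binds IL-10, Il10ra, read 8.09, 8.12 and 8.42 on Treg replicates 1, 2 and 4. CD45RBlow replicates 1 to 4 read 7.46, 7.44, 7.53 and 7.63, a narrow range. CD45RBhigh replicates 1 to 4 spread more widely, at 6.90, 6.61, 7.12 and 7.63. Treg arrays lay above all others, whereas CD45RBhigh replicate 4 lay within the CD45RBlow range.

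Treg cells had 2.21-fold more Il10ra signal than CD45RBhigh cells (log2 1.14, SE 0.19, adjusted p = 0.00117). Against CD45RBlow cells the difference was 0.70 (SE 0.19, adjusted p = 0.0333). This second call ended without any one of the 3 Treg arrays, the 4 CD45RBlow arrays or CD45RBhigh replicate 3, with differences of 0.59 to 0.75 and adjusted p of 0.0507 to 0.129. CD45RBlow cells were above CD45RBhigh cells by 0.45 (SE 0.18), which did not pass (adjusted p = 0.133). It passed with the replicate number as a block (0.45, adjusted p = 0.0171) and without CD45RBhigh replicate 4 (0.64, adjusted p = 0.00697).

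Il10rb, the shared chain, was highest in Treg cells. Its values were 9.12, 9.05 and 8.88 on Treg replicates 1, 2 and 4, 8.33, 8.41, 8.18 and 8.24 on CD45RBlow replicates 1 to 4, and 8.17, 8.02, 8.33 and 8.11 on CD45RBhigh replicates 1 to 4. The CD25- populations overlapped, and every Treg array lay above both.

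The Treg mean of Il10rb, 9.02 ± 0.12 (SD, n = 3), exceeded the CD45RBhigh mean by 0.86 (SE 0.09, adjusted p = 3.25e-05) and the CD45RBlow mean by 0.73 (SE 0.09, adjusted p = 0.000198). Between the CD25- populations the difference was 0.13 with a 95% interval of -0.05 to 0.32 (adjusted p = 0.317). Its chromosomal neighbours gave other values. Ifnar1 and Ifnar2, the chains of the type I interferon receptor, passed in 0 comparisons. With the replicate block Ifnar1 passed in Treg (adjusted p = 0.0293) and in CD45RBhigh cells (adjusted p = 0.006) over CD45RBlow cells. Ifnar2, at 0.24 in Treg over CD45RBhigh cells, passed there with quantile normalization (adjusted p = 0.013, limma) and without Treg replicate 2 (adjusted p = 0.0483, limma). Ifngr2, a chain of the interferon-gamma receptor, was lower than in CD45RBhigh cells in both CD45RBlow cells (-0.59, SE 0.09, adjusted p = 0.000856) and Treg cells (-0.34, SE 0.10, adjusted p = 0.0313). The latter call ended without any one Treg array or without CD45RBhigh replicate 1, 3 or 4 (adjusted p up to 0.128).

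Prdm1 rose at each step with little spread. It read 7.90, 7.82 and 7.66 on Treg replicates 1, 2 and 4. CD45RBlow replicates 1 to 4 read 7.19, 7.15, 6.78 and 6.99, and CD45RBhigh replicates 1 to 4 read 6.25, 6.09, 6.33 and 6.20. No array of one population lay inside the range of another.

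The Treg mean of Prdm1, 7.80 ± 0.12 (SD, n = 3), was 2.99-fold above that of CD45RBhigh cells (log2 1.58, SE 0.10, adjusted p = 6.74e-07). The step from CD45RBhigh to CD45RBlow cells was 0.81 (SE 0.10, adjusted p = 0.000155), and the step from CD45RBlow to Treg cells 0.77 (SE 0.10, adjusted p = 0.00038). Both were present within each replicate set, at 1.00 and 0.69 within replicates 1 and 2 and at 0.62 and 0.78 within replicates 3 and 4.

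**Figure D2:**
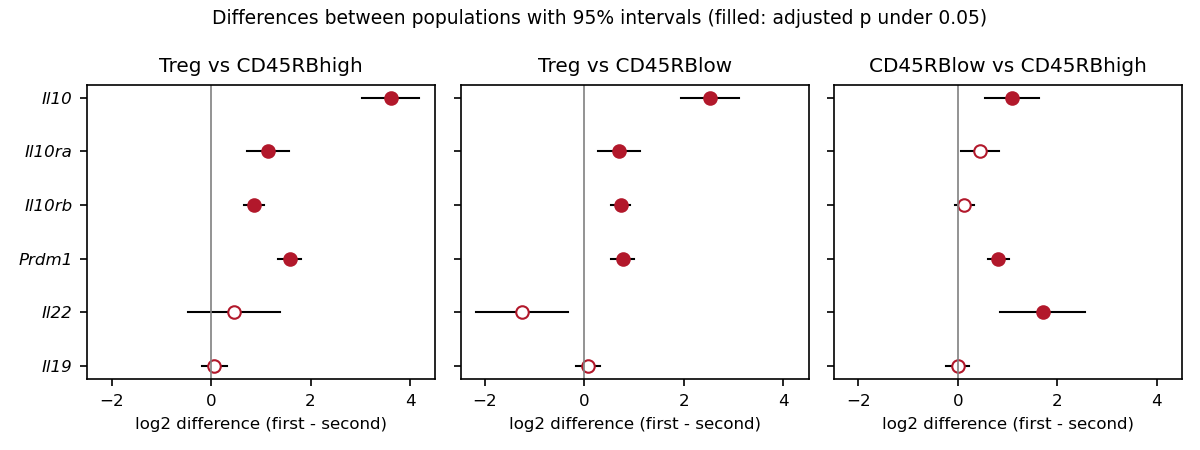
Log2 difference (horizontal axis, first population minus second) of the 6 genes in the 3 comparisons, with 95% intervals from limma; filled points have an adjusted p under 0.05. Il10 has the largest difference of the 6 in both Treg comparisons (3.61 and 2.52), and Il22 has the largest between the CD25- populations (1.70).

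The shapes of these profiles were compared by testing the step from CD45RBlow to Treg cells against the step from CD45RBhigh to CD45RBlow cells in 1 contrast. For Prdm1 the steps differed by -0.04 (95% interval -0.42 to 0.34, adjusted p = 0.897). For Il10rb the Treg step was larger by 0.60 (SE 0.15, adjusted p = 0.0329), and for Il22 it was smaller by -2.95 (SE 0.69, adjusted p = 0.0217). The Treg and CD45RBhigh means of Il22 were near background, and with values raised to the cut its contrast was -1.62 and did not pass (adjusted p = 0.164). For Il10 the Treg step was larger by 1.43 (SE 0.43), which did not pass (adjusted p = 0.0762) but did so with the replicate number as a block (1.37, adjusted p = 0.00331). The Il10 contrast passed in 5 further alternatives: without Treg replicate 4 (adjusted p = 0.0472), without CD45RBlow replicate 2 (adjusted p = 0.0438), with a random block (adjusted p = 0.0257), with quantile normalization (adjusted p = 0.0217) and within replicates 3 and 4 (adjusted p = 0.00353). Across the array the Treg step was larger for 2.33% of probe sets and smaller for 5.22%. The Il10rb call ended without Treg replicate 1 or 2, CD45RBlow replicate 1, 3 or 4, or CD45RBhigh replicate 1 (adjusted p of 0.0633 to 0.0942), with median centring (adjusted p = 0.0647), with trend and robust moderation (adjusted p = 0.0721) and within either replicate set (adjusted p = 0.153 and 0.0605). The Il22 call ended without CD45RBlow replicate 1 (adjusted p = 0.0823) or 2 (adjusted p = 0.0547).

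Genes with the most similar profiles were sought by the root mean square difference of log2 values over the 11 arrays, after each gene's mean was subtracted, among the other 908 named genes. This measure favours genes that vary by the same amount. For Il10 the closest was Il1r2, a decoy receptor of interleukin-1, at 0.24, then Areg, the growth factor amphiregulin, at 0.35, Sdc4, a cell surface proteoglycan, at 0.39 and the chemokine Cxcl2 at 0.42. Il1r2 read 9.04, 9.25 and 8.18 on Treg replicates 1, 2 and 4 and 7.08, 7.29, 6.42 and 6.10 on CD45RBlow replicates 1 to 4. As with Il10, replicates 1 and 2 were the higher ones within both populations, which the choice by likeness over these same arrays favours.

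For Prdm1 the closest were Il18, a cytokine of the interleukin-1 family, at 0.19, the alpha-galactosyltransferase Ggta1 at 0.21, the galactosyltransferase B4galt4 at 0.22 and galectin-1 (Lgals1) at 0.23. For Il10ra they included Il3ra, the binding chain of the interleukin-3 receptor, at 0.21, and the sialyltransferases St3gal2 and St3gal5 at 0.23 and 0.26. For Il10rb they were Wnt3 at 0.11, Havcr2, which encodes the inhibitory receptor TIM-3, at 0.14, the sialidase Neu3 at 0.14 and Cd2 at 0.16. None of the 6 genes was among the closest 4 of another.

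For Il22 the closest was Il17a, the cytokine that marks Th17 cells, at 0.26, followed by the lectin-like receptor Klrb1f at 0.31, Esm1 at 0.42 and Il18rap, a chain of the interleukin-18 receptor, at 0.43. Il17a read 4.38, 5.56, 3.44 and 3.34 on CD45RBlow replicates 1 to 4, and at most 3.18 on every other array. It was at least 1.45-fold higher in CD45RBlow than in CD45RBhigh cells, where it was near background (adjusted p = 0.0223). That result was lost without CD45RBlow replicate 1 or CD45RBhigh replicate 1 or 3 (adjusted p up to 0.0699). Klrb1f read 5.39, 5.56, 4.31 and 4.69 on CD45RBlow replicates 1 to 4. Replicates 1 and 2 were thus the higher ones for Il22, Il17a and Klrb1f, which the choice by likeness over these same arrays favours. Ifng, the chromosomal neighbour of Il22, was also higher on CD45RBlow replicates 1 and 2 than on replicates 3 and 4. It read 9.93, 9.82, 8.86 and 8.67 on CD45RBlow replicates 1 to 4, against 6.62 to 6.97 on Treg and 5.70 to 6.97 on CD45RBhigh arrays.

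**Figure D3:**
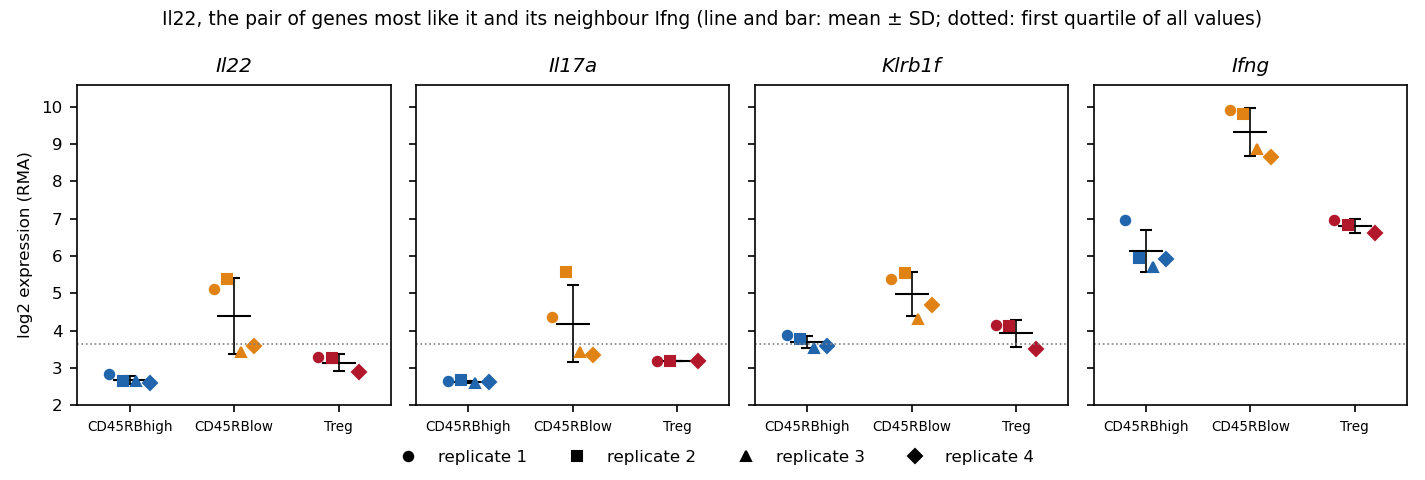
Log2 expression (RMA, vertical axis) of Il22, of Il17a and Klrb1f, the pair with the most similar profiles, and of the neighbouring gene Ifng on each array, by population and replicate number, with the mean and SD; the dotted line is the first quartile of all values. In each panel CD45RBlow replicates 1 and 2 are above replicates 3 and 4, and for Il22 and Il17a the other populations lie under the dotted line.

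Other genes of these pathways were taken from lists of 161 gene names, 80 of them measured. The lists were chosen with earlier results of these data known, so their counts only describe. Across the array 10.3% of probe sets were higher and 8.59% lower in Treg against CD45RBhigh cells. The shares were 6.74% and 5.78% for Treg against CD45RBlow cells, and 7.62% and 4.98% for CD45RBlow against CD45RBhigh cells. Of 9 other chains of the class II cytokine receptor family, to which IL-10RA and IL-10RB belong, 0 rose and 2 fell in Treg against CD45RBhigh cells, with a median of -0.12. The pair that fell were Ifngr2 and Il22ra1, the binding chain for IL-22 (-0.23, SE 0.07, adjusted p = 0.0439), whose call ended without any one of 9 of the 11 arrays and with the replicate number as a block (adjusted p = 0.062). Against CD45RBlow cells Ifngr1, the other chain of the interferon-gamma receptor, rose in Treg cells by 0.73 (SE 0.21, adjusted p = 0.0414), and leaving out any one of 8 arrays ended that call (adjusted p up to 0.149). With the replicate block 3 rose and 0 fell there, and 1 rose and 1 fell against CD45RBhigh cells. Il22ra1, Il20ra, Il20rb and Ifnlr1 read on average between 3.80 and 4.58 in all populations, and the decoy receptor gene Il22ra2 read 2.87 to 3.01, near background. Genes of the signalling step below the receptor, such as Jak1, Tyk2 and Stat3, were not measured here.

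Cytokines and receptors known to induce IL-10 or Blimp-1 in CD4+ T cells gave a mixed picture. They include Il2ra, the gene of CD25, whose rise in both Treg comparisons was fixed by the sort and is counted here. Of 20 measured, 4 rose and 3 fell in Treg against CD45RBhigh cells (median -0.09), 4 rose and 6 fell against CD45RBlow cells (0.07), and 7 rose and 2 fell in CD45RBlow against CD45RBhigh cells (0.03). With the replicate block 7 rose and 4 fell in the last comparison, with Il4ra, the interleukin-4 receptor chain (-0.48, adjusted p = 0.00157), and Il21r added to those that fell. In Treg against CD45RBlow cells 5 rose and 6 fell with the block, with Il4ra added to those that rose (adjusted p = 0.04). In Treg against CD45RBhigh cells 5 rose and 3 fell with it, with Tgfb1 added. Besides Il2ra, Il2rb, the signalling chain of the interleukin-2 receptor, rose in Treg cells over CD45RBhigh cells (3.51, SE 0.21), as did Il12rb1 (2.12, SE 0.12) and Tgfbr1, a TGF-beta receptor chain (1.40, SE 0.15). Tgfbr2, its partner chain, fell by 0.89 (SE 0.06). Il27ra, the receptor chain for interleukin-27, did not pass in any comparison, and neither did Il21r, though with the replicate block Il21r was lower in CD45RBlow than in CD45RBhigh cells (-0.41, adjusted p = 0.0207). The cytokine Il4 was lower in Treg than in CD45RBlow cells (-2.65, SE 0.24), as were Il2 (-2.09, SE 0.24) and Il21, at least 4.38-fold, whose call ended without any one Treg array or without CD45RBlow replicate 1 (adjusted p up to 0.0937).

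Genes that Blimp-1 is known to repress in T cells were set beside Prdm1. In CD45RBlow against CD45RBhigh cells 6 of 11 rose and 3 fell (median 1.55), among them Ifng up (3.19, SE 0.33), Il2 up by at least 4.36-fold, and Ccr7, a homing receptor for lymph nodes, down (-0.69, SE 0.10). In Treg against CD45RBlow cells 1 rose, the chemokine receptor Ccr6 (1.30, SE 0.26), and 4 fell: Ifng (-2.52, SE 0.35), Il2, Il21 and Il7r, the interleukin-7 receptor (-0.77, SE 0.08). With the replicate block 2 rose and 5 fell there, with Il17a added to those that fell. In Treg against CD45RBhigh cells 2 rose, Ccr6 and Cxcr5, and 2 fell, Il7r and Ccr7 (median 0.32). Prdm1 itself was higher in the first-named population of each of these comparisons.

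In Treg against CD45RBhigh cells 10.3% of all probe sets rose and 8.59% fell. Among 12 other suppressive or anti-inflammatory mediators, a list chosen with earlier results known, 6 rose and 0 fell there (median 0.66). These were Il1rl1, a receptor for interleukin-33 (4.16, SE 0.26), Il1r2 (3.26, SE 0.30), Areg (2.99, SE 0.36), Lgals1, Lgals3 and Havcr2. Against CD45RBlow cells 4 rose, Il1rl1, Il1r2, Areg and Havcr2, and 1 fell, Tgfb3 (-1.82, SE 0.13; median 0.22). With the replicate block 8 rose and 1 fell against CD45RBhigh cells, where Tgfb3 fell (adjusted p = 0.0202) and Tgfb1 and Il1rn were added to those that rose. Against CD45RBlow cells 5 rose and 2 fell with it, with Il1rn and Lgals9 added. In CD45RBlow against CD45RBhigh cells 6 rose and 0 fell (median 0.69). Tgfb1, the main TGF-beta gene of T cells, did not pass in any of the 3, at 9.43 to 9.87 on average, though with the replicate block its 0.44 over CD45RBhigh cells passed (adjusted p = 0.00619). Between the CD25- populations the call for Il1r2 ended without CD45RBlow replicate 1 (adjusted p = 0.058). The call for Areg there ended without any one of 7 arrays, namely Treg replicate 2, CD45RBlow replicate 1 or 2 or any CD45RBhigh array (adjusted p up to 0.103).

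**Figure D4:**
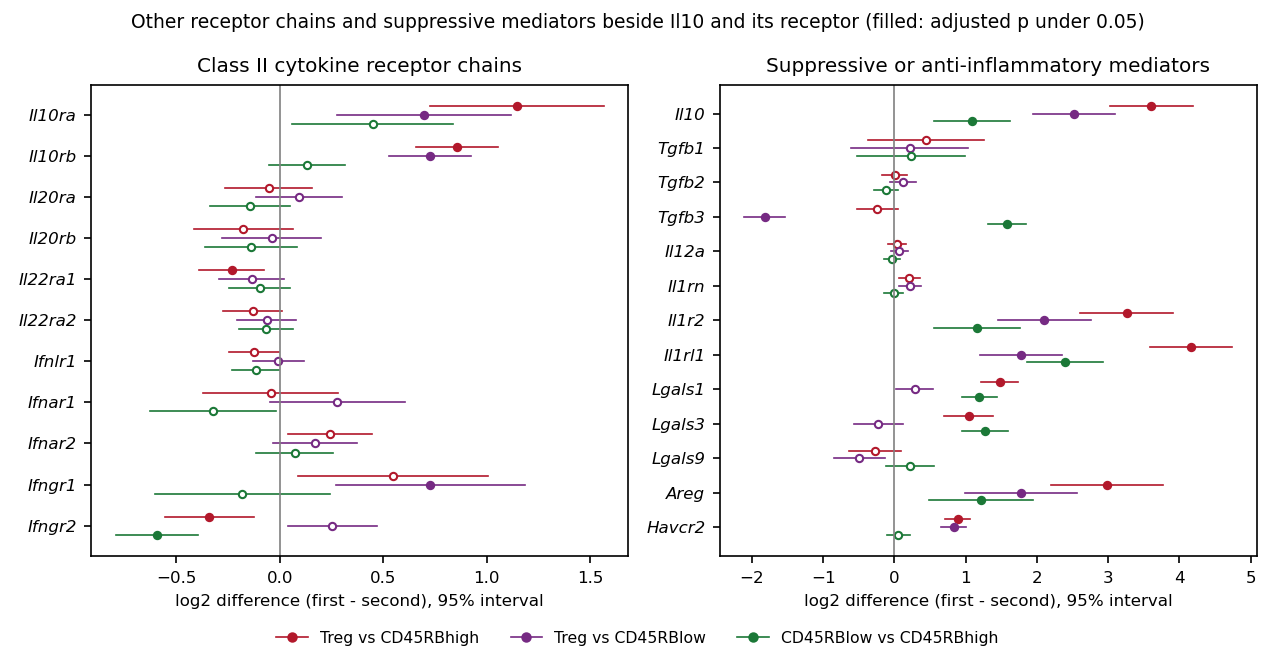
Log2 differences (horizontal axis, first population minus second) with 95% intervals in the 3 comparisons (colours) for class II cytokine receptor chains (left) and suppressive or anti-inflammatory mediators (right); filled points have an adjusted p under 0.05. Il10ra and Il10rb stand at 1.14 and 0.86 in Treg against CD45RBhigh cells, and Il10, Il1r2, Il1rl1 and Areg are filled in all 3 comparisons.

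B cells, myeloid cells and innate lymphocytes can also make these cytokines, so their markers are given beside them. Of 3 B cell markers measured, Cd72 and Cd22 were higher in Treg than in CD45RBhigh cells (0.54 and 0.29). In Treg against CD45RBlow cells Cd72 was higher (0.85, SE 0.14) and Cd22 lower (-0.30, SE 0.07), and Cd22 was higher in CD45RBlow than in CD45RBhigh cells (0.59). Without Treg replicate 1 both calls against CD45RBhigh cells ended (adjusted p up to 0.0734 for Cd22 and 0.0815 for Cd72), as did that of Cd22 with quantile normalization (adjusted p = 0.184). The lower Cd22 call ended without any one of 5 arrays, the 3 Treg arrays and CD45RBlow replicates 2 and 3 (adjusted p up to 0.0892), and with quantile normalization (adjusted p = 0.0582). The summed level of the 3 was 8.54 to 8.76 on Treg, 7.92 to 8.29 on CD45RBlow and 7.99 to 8.31 on CD45RBhigh arrays (log2). Of 10 myeloid and dendritic markers 0 rose in any of the 3 comparisons. Against CD45RBhigh cells 1 fell in Treg cells, Cd209a (-0.24), and 2 in CD45RBlow cells, Cd209a (-0.26) and Clec10a (-0.31). The Cd209a calls ended without any one of 10 and of 6 arrays, in this order (adjusted p up to 0.192 and 0.0966). The summed level of the 10 markers was 7.71 to 7.81 on Treg, 7.67 to 7.74 on CD45RBlow and 7.71 to 7.82 on CD45RBhigh arrays. Of these markers 4, Adgre1 included, were under the cut on every array. Of 11 markers of natural killer, CD8 and innate lymphoid cells the summed level was 7.28 to 7.31 on Treg, 8.90 to 9.30 on CD45RBlow and 9.54 to 9.91 on CD45RBhigh arrays. Klrd1, which weighs most in that sum, had means of 3.93 in Treg, 8.28 in CD45RBlow and 9.22 in CD45RBhigh cells. Klrb1f averaged 3.93, 4.99 and 3.69 in the same order and Klrc1 4.20, 5.20 and 4.61, so both were highest in CD45RBlow cells. The same held for Klrk1, which was near background in every population. Klra3, Klra4, Klra7, Klra8 and Klra9 had their highest mean in CD45RBhigh cells, as Klrd1 did, with Klra3 and Klra4 near background. Kit and Il23r had theirs in Treg cells. In each Treg comparison 1 of the 11 rose, Kit, and 4 fell. With the replicate block 1 rose and 6 fell against CD45RBhigh cells, and 1 rose and 5 fell against CD45RBlow cells. In CD45RBlow against CD45RBhigh cells 2 of the 11 rose, Klrb1f and Klrc1, and 2 fell. The call for Klrc1 ended without CD45RBlow replicate 1 or 2 (adjusted p up to 0.0605). With the replicate block 2 rose and 4 fell between these CD25- populations. Il23r, which marks Th17 and innate lymphoid cells, averaged 2.97 to 3.26, near background. The part of such cells in the Il10 and Il22 signals was not tested.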

How the data were processed

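The members and gene lists were chosen with earlier results of these data known. Total RNA of 11 samples, labelled with biotin, was hybridised to a custom Affymetrix glycan gene chip, 1 array each. Per the labels and the series text, the authors converted intensities with RMA (version not given in the sources used here), which the authors deposited as log2 values for each probe set. No further scaling or filter was applied. Names came from RefSeq transcripts in the identifiers (963 of 1246 probe sets), with the brightest probe set per gene. The 3 population means were estimated jointly from the 11 arrays (lmFit and eBayes of limma 3.58.1, R 4.3.3), with two-sided tests and Benjamini-Hochberg adjustment over 1246 probe sets per comparison, threshold 0.05. The method was tested on simulated data.

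Genes named were the 6 members, up to 4 per list and comparison by smallest adjusted p or where a count needed them, and the 4 most similar profiles per member called, of which 1 is not reported here. Some others were named after their values were seen: Ifnar1, Ifnar2 and Il20 as neighbours or relatives, Tgfb1, Il27ra, Il21r, Il23r and Adgre1. Of 7 promoter motifs searched, all are reported. The Il22 stretch was kept to 100 bases and both stop before the annotated start, so that no transcribed sequence is shown. Replicate numbers are shared between populations. Deviations from the population mean correlated at 0.31 to 0.56 between the 10 pairs of arrays of 1 number. By a rule of r over 0.1 in every pair the numbers were taken to pair the samples. The 10 pairs of other number within a replicate set also passed this rule, at 0.20 to 0.58. The rule therefore cannot tell the number from the replicate set. The main fit did not use this pairing, so its p-values and calls are unpaired. The replicate number as a block was run as an alternative. Titles repeat a code per number, though no label says what it marks. Alternatives were 10 other settings and leaving out each array. Arrays of a population correlated at 0.991 to 0.998 across probe sets. The number of arrays limits the precision. Figures used matplotlib 3.10.9.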

Additional observations from a re-analysis of the deposited data

Results flagged for a closer look

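In 1 of the 12 groups of 4 arrays checked, 1 array lay far from the others by Dixon's criterion. Il19 read 3.75 on CD45RBhigh replicate 1, against 3.93 to 3.94 on the other 3. Chance flags about 1 in 20 groups, and the gap is small beside the range of Il19 within Treg arrays.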

How the results depend on the processing

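The calls for Il10, Il10rb and Prdm1 in Treg cells against both populations, for Il10 and Prdm1 in CD45RBlow against CD45RBhigh cells, and for Il10ra in Treg against CD45RBhigh cells held under all alternatives run, with 1 array left out included, and the member counts per comparison stayed within 1.5 times. With the replicate block the difference of Il22 between Treg and CD45RBlow cells passed at -1.41. That of Il10ra between the CD25- populations passed at 0.45 and the step contrast of Il10 at 1.37, and no other call of the 6 genes changed. Calls of other genes that changed are given in part beside their lists. With a random block Il22 gave -1.31 (passed). With only the arrays compared, Il22 in Treg over CD45RBhigh cells gave 0.46 and passed. With values raised to the first quartile, Il22 between the CD25- populations gave 0.81 and lost its call. Within replicates 1 and 2 Il22 passed in both Treg comparisons (0.53 and -1.99) and Il10ra between the CD25- populations (0.69), and within replicates 3 and 4 Il22 passed in Treg against CD45RBlow cells (-0.63), where all its values were near background and 1 Treg array entered. Its Treg and CD45RBhigh values were near background throughout, so these calls show no measured level. The cause of these changes was not tested.

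The count of genes whose steps differed was 2 as reported, 1 with median centring, without dim probe sets, with the floor, with trend and robust moderation and within replicates 1 and 2, and 0 to 3 leaving out 1 array. Signs turned for small differences: Il19 between CD25- populations (0.048 after quantile normalization), in Treg cells within replicates 1 and 2 (-0.024 against CD45RBhigh and -0.0203 against CD45RBlow), and Il10rb between CD25- populations within replicates 3 and 4 (-0.013). Step contrasts turned for Il19 (-0.041 with quantile normalization, -0.017 within replicates 1 and 2), Prdm1 (0.076 with quantile normalization, 0.16 within replicates 3 and 4) and Il10ra (-0.031 within replicates 1 and 2). Leaving out 1 array, Il19 ran from -0.065 to 0.21 and -0.062 to 0.21 in Treg cells and from -0.048 to 0.031 between the others. Il10ra ran from 0.59 to 0.75 (Treg against CD45RBlow) and 0.30 to 0.64 (CD25- populations). Il22 ran from -1.57 to -0.91 in Treg against CD45RBlow cells. Step contrasts ran from -0.0597 to 0.21 for Il19 and -0.21 to 0.067 for Prdm1. No member has another probe set, so that alternative was not run.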
